A study of Homo sapiens with 2 samples.

Results

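Interferon-stimulated effector genes are the genes that a cell switches on after it has sensed interferon, and their products block several steps of viral replication. The 52 genes described here were taken from a list of such genes, and each was read from the probe sets of the array that are annotated to it and to no other gene. Where a gene had several such probe sets, the one with the highest mean log2 signal over both arrays was used. Of the 52 genes, 50 exceeded a floor of 47.9, the median of all signals, in at least 1 array, as did 12931 named genes in all. STAT2, a transcription factor of the pathway, and IFI30, a lysosomal thiol reductase, could be matched to no probe set of their own in the annotation used and were not analysed here. In all, 97 probe sets named 1 of these genes alone, and 92 of them were above the floor.

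The study compared PC-3 cells, a human prostate cancer line from a bone metastasis, that carried an shRNA expression vector against SHISA2 (siSHISA2) with PC-3 cells that carried a control shRNA vector (siCONTROL). The study's design text calls these shRNA vectors, while the sample names have the prefix si, which is more usual for siRNA. By that text both groups received an shRNA vector, and no cells without a vector were analysed here. Each group is a single array of total RNA. Without replicates nothing below could be tested, and precision is limited by the number of arrays. The labels do not give the number of cultures or clones behind each RNA.

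As background, type I interferons (IFN-alpha and IFN-beta) and type III interferons (IFN-lambda) bind different receptors, whose JAK1 and TYK2 kinases activate transcription factors. STAT2 and IRF9 are parts of the complex ISGF3, which binds the interferon-stimulated response element (ISRE) of its target genes. Interferon-gamma acts through the GAS element instead. Epithelial cells carry receptors for each type.

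SHISA2 itself had a signal of 1506 in siSHISA2 cells, against 3536 in siCONTROL cells (log2 ratio of siSHISA2 over siCONTROL, as for every ratio below, -1.23). The median signal over all probe sets was 50.3 in the siSHISA2 array and 45.6 in the siCONTROL array, and dividing each array by its median lowered the median log2 ratio of all measured genes to -0.12, against 0.01 as deposited. Of 8 epithelial markers 5 were above the floor, with a summed signal over the list of 29894 in siSHISA2 cells and 30285 in siCONTROL cells. The brightest was the keratin KRT18, at 17533 in siSHISA2 and 18340 in siCONTROL cells. KRT7 was the only one at least 1.3-fold apart, at 1890 in siSHISA2 and 1395 in siCONTROL cells (0.44), and CDH1, KRT19 and CLDN7 were below the floor in both arrays. Of 11 leukocyte markers 4 were above the floor, at signals of at most 164.6 in siSHISA2 cells and 109.1 in siCONTROL cells, and the pan-leukocyte PTPRC was below the floor on all 5 of its probe sets. The summed signal of the leukocyte list was 423.6 in siSHISA2 cells and 292.0 in siCONTROL cells, and its part in the results below was not tested.

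Most of these interferon-stimulated genes had strong signals in both arrays, and most were slightly higher in siSHISA2 cells as deposited, though not after each array was divided by its median. In 47 of the 50 measured genes (94%) both signals were above 387.3, the 75th percentile of all signals, compared with 59.2% of all measured genes. The log2 ratio was above 0 in 38 of 50 genes (76%), with 52.2% of all measured genes above 0. Their median log2 ratio was 0.10, and it was 0.01 over all measured genes. After each array was divided by its median, 25 of 50 were above 0, with 29.8% of all genes above 0, and the median was -0.02 for these genes and -0.12 for all genes. The difference between the medians was 0.09 as deposited and 0.10 after that scaling.

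The log2 ratios ran from -0.30 to 0.66. At least 1.3-fold higher were 6 of 50 genes, against a background of 10.8% of all measured genes, and none was at least 1.3-fold lower, against 9.3%. The count of 6 is close to what the background share gives. Most genes of that background were dim, as 245 of the 1393 higher ones had both signals above 387.3. Among genes with both signals above 387.3, 35 of 47 were above 0, beside 50.2% of all such genes. Of the same 47, 5 were at least 1.3-fold higher, beside 3.2% of all such genes, and none was lower, beside 4.59%. RSAD2, at 1.58-fold, was the only one at least 1.5-fold higher (5.01% of all measured genes were), and none reached 2-fold (0.92%). A technical spread was taken from 2827 genes with several probe sets above 387.3 in both arrays: their 2 brightest probe sets gave log2 ratios whose difference, scaled to a single probe set, had an SD of 0.150. The ratio was closer to 0 than that in 22 of the 50 genes, and in 5953 of all 12931 measured genes, a like share, though the latter include many dim genes. Among genes with both signals above 387.3 the ratio was closer to 0 than 0.150 in 21 of 47 interferon-stimulated genes and in 4472 of all 7650, a larger share. The same SD was 0.286 over all 6428 genes with several measured probe sets, dim ones included, and 0.177 over the 24 interferon-stimulated genes with several. Such a spread holds no variation between cultures or arrays.

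**Figure D1:**
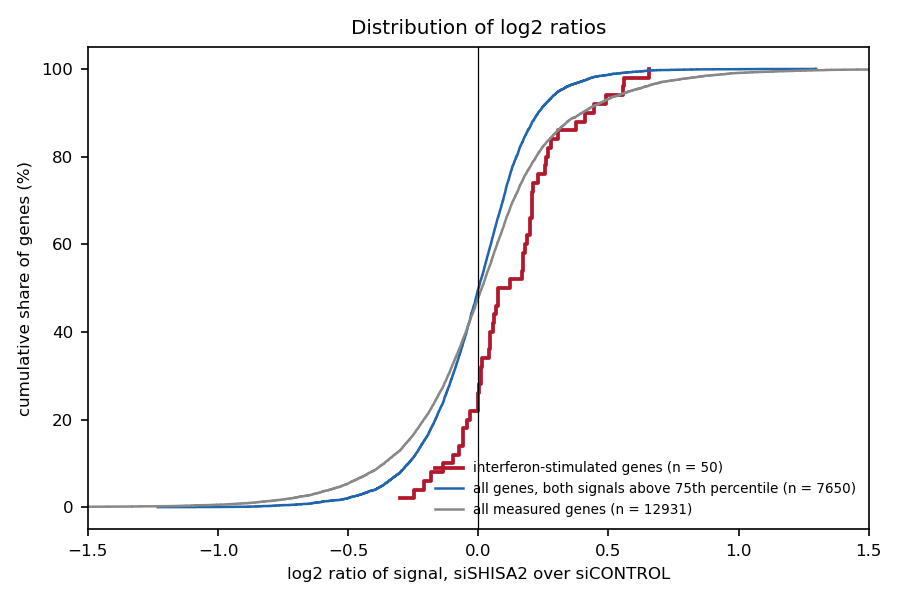
Cumulative share of genes (vertical axis, %) by log2 ratio of signal, siSHISA2 over siCONTROL (horizontal axis), for the 50 interferon-stimulated genes (red), the 7650 genes with both signals above 387.3 (blue) and all 12931 measured genes (grey). The red line lies to the right of the others over most of its length, and runs between -0.30 and 0.66; signals are as deposited, and dividing each array by its median moves the median of the red line to -0.02 and that of the grey line to -0.12.

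The promoters of these genes are shown first, searched for letters like those of the ISRE and GAS elements, which not every gene held. RefSeq promoter windows (GRCh38.p14, from 250 bases before to 50 bases after the start) were matched by symbol for 41 of the 52 genes. An ISRE-like motif, GAAA followed by any 2 bases and GAAA again, searched on both strands, occurred in 27 of the 41 genes (65.9%) and in 4.38% of all 27305 genes with a window. The GAS-like letters TTCNNNGAA occurred in 15 of the 41 (36.6%) and in 9.38% of all genes. ISRE-like matches overlapped each other in 4 of the 55 windows and overlapped a GAS-like match in 6. Below are stretches of up to 80 bases around the match nearest the start, in the direction of transcription, with matches in capitals (TTTC, any 2 bases and TTTC where the match is on the other strand); a match cut by the edge of a stretch is shown in part. RSAD2, ISG20 and MX1 were at least 1.3-fold higher in siSHISA2 cells, ISG15 and IFIT1 were among the genes slightly higher, DDX60 had equal signals, IFIT5 had the lowest ratio, and PARP9 and DTX3L share 1 stretch read in opposite directions.
RSAD2, chr2:6877597-6877676, plus strand: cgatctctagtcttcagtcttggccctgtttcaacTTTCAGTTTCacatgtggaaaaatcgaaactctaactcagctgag
ISG20, chr15:88638912-88638991, plus strand: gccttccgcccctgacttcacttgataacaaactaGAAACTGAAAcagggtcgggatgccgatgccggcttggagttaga
MX1, chr21:41420534-41420607, plus strand: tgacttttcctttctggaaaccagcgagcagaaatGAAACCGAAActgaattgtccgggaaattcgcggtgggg
ISG15, chr1:1013355-1013434, plus strand: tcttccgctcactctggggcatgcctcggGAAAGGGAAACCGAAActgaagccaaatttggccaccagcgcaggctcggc
IFIT1, chr10:89392485-89392564, plus strand: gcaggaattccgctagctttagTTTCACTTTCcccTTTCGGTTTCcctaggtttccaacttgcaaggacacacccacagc
DDX60, chr4:168318761-168318840, minus strand: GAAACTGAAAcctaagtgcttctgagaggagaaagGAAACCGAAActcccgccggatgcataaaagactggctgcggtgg
IFIT5, chr10:89414529-89414608, plus strand: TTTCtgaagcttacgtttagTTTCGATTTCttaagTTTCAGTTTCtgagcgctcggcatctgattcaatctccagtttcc
PARP9, chr3:122564297-122564376, minus strand: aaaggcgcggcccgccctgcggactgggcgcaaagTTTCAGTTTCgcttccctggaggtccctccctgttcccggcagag
DTX3L, chr3:122564297-122564376, plus strand: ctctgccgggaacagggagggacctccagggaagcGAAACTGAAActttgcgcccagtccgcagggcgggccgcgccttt

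The first base of the match lay 145 bases upstream of the start in RSAD2, 69 in ISG20, 107 in ISG15 and 103 in IFIT1. It lay 53 bases upstream in DDX60, 41 in PARP9, 6 in DTX3L and 4 in IFIT5, and 11 bases after the start in MX1. A match has 10 bases, so those of DTX3L and IFIT5 ran across the start. RSAD2, MX1 and PARP9 have other windows in the table, which were searched too, and each of the 3 has a window without an ISRE-like match. Genes at both ends of the range of ratios thus held the motif. The measured genes with a match had a median log2 ratio of 0.17 (27 genes, from -0.30 to 0.66) and those without one 0.08 (12 genes, from -0.25 to 0.41). Both ranges span 0, and the difference was not tested.

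Interferon genes themselves come first in the pathway. IFNL1, a type III interferon, had a signal of 1219 in siSHISA2 cells and 652.2 in siCONTROL cells (log2 ratio 0.90). IFNL2 had 1228 in siSHISA2 cells and 737.0 in siCONTROL cells (0.74), and since these genes are close in sequence their probe sets may read each other's transcript. IFNB1, a type I interferon, was at 110.5 in siSHISA2 cells and below the floor, at 45.3, in siCONTROL cells, which makes it at least 2.31-fold higher but dim. IFNE, an interferon of epithelia, was near the floor (50.6 in siSHISA2 and 43.4 in siCONTROL cells). IFNA1, IFNA2, IFNK, IFNW1 and IFNG were below the floor in both arrays. Of the 4 measured ligands, 3 were at least 1.3-fold higher, beside 10.8% of all measured genes, and none was lower, beside 9.3%, which with 4 genes says nothing.

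The receptors did not go one way. Of the 9 measured genes for receptor chains and JAK kinases, 4 were above 0 and 5 below, with a median of -0.00. IFNAR1, a chain of the type I receptor, had signals of 337.6 in siSHISA2 cells and 449.5 in siCONTROL cells (log2 ratio -0.41, with probe sets from -0.46 to 0.24), and was the only one at least 1.3-fold apart, where 9.3% of all measured genes were lower by that much. IFNAR2, its partner chain, was at -0.13, the interferon-lambda chain IFNLR1 at 0.20 and IL10RB, the other chain of that receptor, at -0.16. The interferon-gamma receptor chains IFNGR1 and IFNGR2 were at 0.03 and -0.24. Among the kinases JAK1 was at 0.16, JAK2 at 0.30 and TYK2 at -0.00.

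Among feedback inhibitors, 3 of 9 were above 0, with a median of -0.06. SOCS3, which blocks JAK kinases at cytokine receptors, had signals of 1116 in siSHISA2 cells and 1740 in siCONTROL cells, a log2 ratio of -0.64, and each of its 3 measured probe sets was below 0 (-1.40 to -0.49). SOCS1, its relative at the interferon receptors, was dim and inconsistent, at -0.12 with probe sets from -0.95 to 0.73. The phosphatase PTPN6 was at least 1.52-fold higher from below the floor, at 72.9 in siSHISA2 cells, and PIAS3, an inhibitor of STAT3, was at -0.16.

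RNA and DNA sensors had 6 of 12 genes above 0. DHX58, a helicase of the RIG-I family, had 196.0 in siSHISA2 cells and 48.9, just above the floor, in siCONTROL cells (4.01-fold higher, a fold that carries little weight because the siCONTROL signal is so close to the floor). ZBP1, a sensor of Z-form nucleic acids, was at least 1.56-fold higher from below the floor, at 74.5 in siSHISA2 cells. IKBKE, a kinase that activates IRF3, was also dim, at 146.6 in siSHISA2 and 101.1 in siCONTROL cells (0.54). IRF3, the transcription factor that these sensors act through, was at 702.3 in siSHISA2 and 471.0 in siCONTROL cells (0.58). Of the 12, 4 were at least 1.3-fold higher, beside 10.8% of all measured genes, and none was lower, which is near the 9.3% of all genes. The median of this list was 0.10 as deposited, but it was below 0 under 6 of the 8 other settings, so it has no stable direction.

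**Figure D2:**
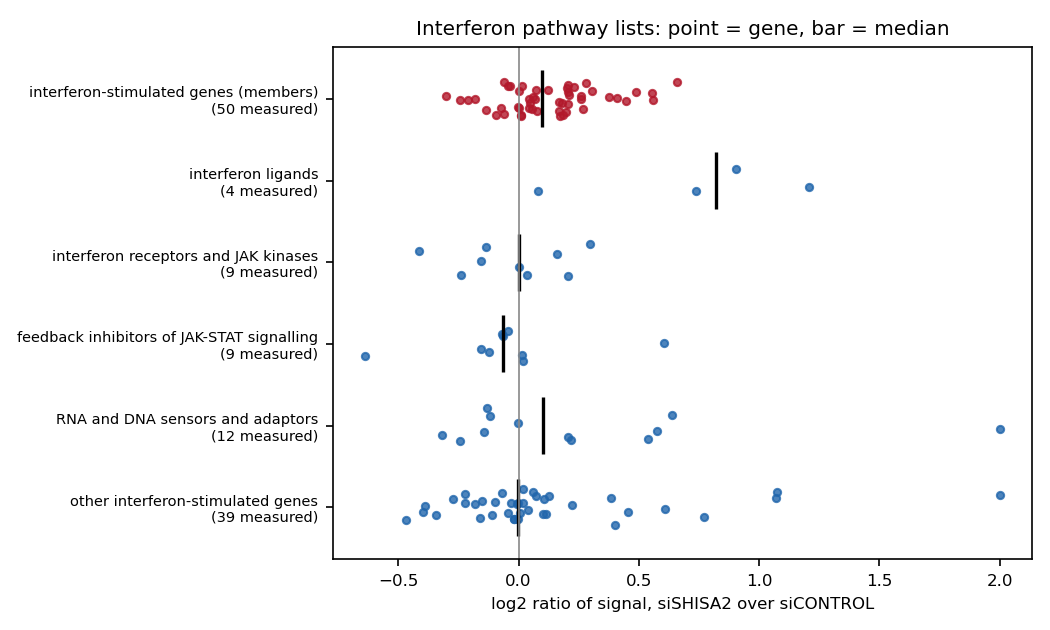
Log2 ratio of signal, siSHISA2 over siCONTROL (horizontal axis), for each measured gene (points, spread vertically at random within a row) of the interferon-stimulated genes (red) and of 5 other lists of the pathway (blue), with the median of each list as a black bar. Of the lists shown, the 4 measured interferon ligands have the highest median (0.82), the interferon-stimulated genes are at 0.10 and the receptors and kinases at -0.00; the bar for the sensors, at 0.10, moves below 0 after each array is divided by its median, as does that of the interferon-stimulated genes.

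The transcription factors of the response had ratios from -0.10 to 0.26. IRF9, the DNA-binding part of ISGF3, had signals of 3105 in siSHISA2 cells and 2728 in siCONTROL cells (log2 ratio 0.19). IRF1, an activator that interferon-gamma induces, had 2294 in siSHISA2 and 1919 in siCONTROL cells (0.26), and 0.31 on its other probe set. IRF7, which amplifies the production of type I interferon, had 4506 in siSHISA2 and 4815 in siCONTROL cells (-0.10). IRF2, which competes with IRF1 for DNA, had 630.0 in siSHISA2 and 644.9 in siCONTROL cells (-0.03). None of the 4 reached 1.3-fold, and IRF2 and IRF7 were within the technical spread.

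The IFIT genes encode proteins that bind viral RNA and block its translation, and they differed among themselves. IFIT2 had signals of 14212 in siSHISA2 cells and 10119 in siCONTROL cells (log2 ratio 0.49), and the other probe set read 5089 in siSHISA2 and 3413 in siCONTROL cells (0.58). IFIT3, a partner of IFIT1, was at 18123 in siSHISA2 and 15133 in siCONTROL cells (0.26, and 0.34 on its other probe set). IFIT1, which recognises RNA caps that lack a methyl mark, was at 19811 in siSHISA2 and 17612 in siCONTROL cells (0.17). IFIT5 went the other way on both of its probe sets, with 2195 in siSHISA2 cells and 2707 in siCONTROL cells (-0.30) on one and 1335 in siSHISA2 and 1676 in siCONTROL cells (-0.33) on the other. It had the lowest ratio of all 50 genes. These signs were the same under the 3 other scalings.

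The OAS family split in a similar way. OAS enzymes make short chains of adenylate that activate RNase L, which degrades RNA, and OASL is a relative without that activity that assists RIG-I. OASL had signals of 15087 in siSHISA2 cells and 11086 in siCONTROL cells (log2 ratio 0.44), and 6779 in siSHISA2 and 5331 in siCONTROL cells (0.35) on its other probe set. OAS1 was lower in siSHISA2 cells, at 3386 in siSHISA2 and 4014 in siCONTROL cells (-0.25), but by only 0.07 on its other probe set (2988 in siSHISA2 and 3126 in siCONTROL cells). OAS3 was at 5007 in siSHISA2 and 5268 in siCONTROL cells (-0.07). OAS2 was at 2649 in siSHISA2 and 2760 in siCONTROL cells (-0.06), and both ratios were within the technical spread. On the probe sets used, OASL was above 0 and the other OAS genes below 0 under all 4 scalings. Other probe sets of OAS2 were at 0.04 and -0.10 as deposited, and a dim one of OAS3 was at -0.30.

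Among the GTPases, all 5 measured genes were above 0 as deposited, and 3 of 5 after each array was divided by its median. MX1, which traps viral nucleocapsids, had 82.1 in siSHISA2 cells and 55.9 in siCONTROL cells (log2 ratio 0.55), and both signals are so close to the floor that the ratio carries little weight. MX2, a nuclear envelope relative that restricts HIV, was at 597.3 in siSHISA2 and 496.8 in siCONTROL cells (0.27). The guanylate-binding proteins, which attack pathogen-containing vacuoles, had ratios from 0.01 to 0.21. GBP2 was at 311.5 in siSHISA2 and 270.0 in siCONTROL cells (0.21, with -0.27 on a dimmer probe set). GBP3 was at 5683 in siSHISA2 and 5445 in siCONTROL cells (0.06). GBP1 was at 2256 in siSHISA2 and 2235 in siCONTROL cells (0.01, with -0.11 and -0.15 on its other probe sets).

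The system that attaches ISG15, a small protein like ubiquitin, to other proteins had strong signals and ratios from 0.00 to 0.21. ISG15 had 28848 in siSHISA2 cells and 24962 in siCONTROL cells (log2 ratio 0.21). HERC5, its main ligase, had 16449 in siSHISA2 and 14322 in siCONTROL cells (0.20). HERC6, a relative of HERC5, was at 1969 in siSHISA2 and 1870 in siCONTROL cells (0.07). The protease USP18, which removes ISG15 and holds back the receptor, was at 2815 in siSHISA2 and 2730 in siCONTROL cells (0.04). The conjugating enzyme UBE2L6 was at 6126 in siSHISA2 and 6113 in siCONTROL cells (0.00). All 5 were above 0 as deposited, and 2 of 5 after each array was divided by its median.

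ZC3HAV1, the zinc-finger antiviral protein that binds CG-rich viral RNA, was higher on all 3 of its probe sets. It had 9444 in siSHISA2 cells and 7114 in siCONTROL cells (log2 ratio 0.41) on the one used, 8464 in siSHISA2 and 6255 in siCONTROL cells (0.44) on the next, and 3894 in siSHISA2 and 2604 in siCONTROL cells (0.58) on the third. Of the ADP-ribosyltransferases, PARP12 was at 5005 in siSHISA2 and 4440 in siCONTROL cells (0.17). PARP14, of the same family, was at 2878 in siSHISA2 and 2861 in siCONTROL cells (0.01). PARP9 was at 2738 in siSHISA2 and 3167 in siCONTROL cells (-0.21, with 0.05 on its other probe set). DTX3L, the ubiquitin ligase that forms a complex with PARP9, was at 4799 in siSHISA2 and 4803 in siCONTROL cells (-0.00).

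TRIM21, a cytosolic antibody receptor with ubiquitin ligase activity, had 736.3 in siSHISA2 cells and 596.3 in siCONTROL cells (log2 ratio 0.30). TRIM22, another ubiquitin ligase, had 4279 in siSHISA2 and 4252 in siCONTROL cells (0.01). PML, the scaffold of nuclear bodies, was at 0.23 on the probe set used (559.7 in siSHISA2 and 476.9 in siCONTROL cells), but its 9 measured probe sets ran from -0.63 to 0.85, so its direction is not settled. SP110, a nuclear body protein, was at 2691 in siSHISA2 and 3054 in siCONTROL cells (-0.18), with 5 probe sets from -0.18 to 0.16.

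Proteins of membranes and mitochondria had high signals in both arrays and ratios from -0.06 to 0.20. IFITM1, which blocks fusion of viral and cell membranes, had 33460 in siSHISA2 cells and 29533 in siCONTROL cells (log2 ratio 0.18). IFI27 had 24180 in siSHISA2 and 20979 in siCONTROL cells (0.20). IFI6, a survival protein, had 26237 in siSHISA2 and 25404 in siCONTROL cells (0.05). PLSCR1, a phospholipid scramblase, was at 16559 in siSHISA2 and 15922 in siCONTROL cells (0.06). BST2, or tetherin, which holds budding virions on the cell, was at 9154 in siSHISA2 and 9534 in siCONTROL cells (-0.06).

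The highest ratio of all 50 genes was that of RSAD2 (viperin), which makes a chain-terminating nucleotide. It had 16193 in siSHISA2 cells and 10264 in siCONTROL cells (log2 ratio 0.66), and 10497 in siSHISA2 and 6849 in siCONTROL cells (0.62) on its other probe set. CMPK2, a nucleotide kinase that supplies the same pathway and whose gene is its neighbour, was at 8838 in siSHISA2 and 7277 in siCONTROL cells (0.28). ISG20, a 3' exonuclease that degrades single-stranded RNA, had 6178 in siSHISA2 cells and 4188 in siCONTROL cells (0.56), and 4921 in siSHISA2 and 3116 in siCONTROL cells (0.66) on its other probe set. SAMD9, a restriction factor of poxviruses, had 3050 in siSHISA2 and 2349 in siCONTROL cells (0.38, and 0.30 on the other), just inside the 1.3-fold line, and it passed that line after quantile normalization and after removal of a loess trend. Its paralogue SAMD9L was at 1111 in siSHISA2 and 1059 in siCONTROL cells (0.07).

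The remaining effectors had ratios from -0.13 to 0.21. IFI44 had 10841 in siSHISA2 cells and 9390 in siCONTROL cells (log2 ratio 0.21). Its neighbour IFI44L had 5206 in siSHISA2 and 4534 in siCONTROL cells (0.20). The pro-apoptotic XAF1 had 3364 in siSHISA2 and 2996 in siCONTROL cells (0.17). All 3 were slightly higher in siSHISA2 cells. IFI35 was at 4357 in siSHISA2 and 4133 in siCONTROL cells (0.08). The DNA sensor IFI16 was at 1598 in siSHISA2 and 1553 in siCONTROL cells (0.04), with 0.20 and 0.27 on its other probe sets. The helicase DDX60 had 9391 in both arrays (0.00). The aminopeptidase LAP3 was at 11401 in siSHISA2 and 11760 in siCONTROL cells (-0.04). APOL6, an apolipoprotein L, was at 422.8 in siSHISA2 and 464.1 in siCONTROL cells (-0.13), with probe sets from -0.33 to 0.63. EPSTI1 was at 52.1 in siSHISA2 cells and below the floor, at 21.1, in siCONTROL cells, which allows only the bound of at least 1.09-fold higher.

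**Figure D3:**
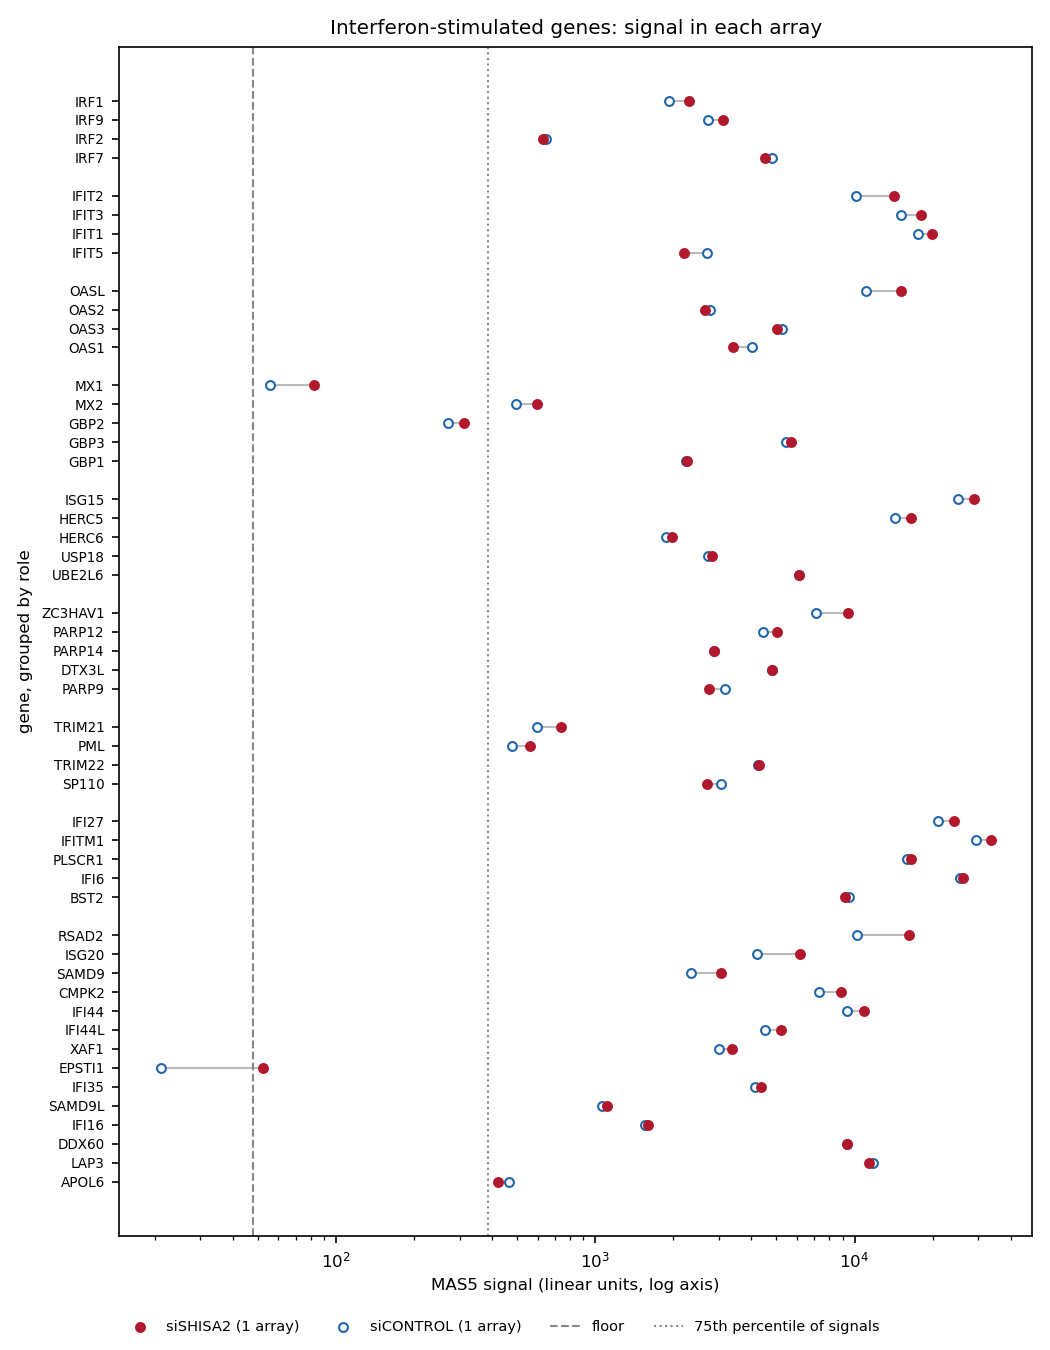
Signal of each of the 50 genes on the probe set used (horizontal log axis) in siSHISA2 cells (filled red) and siCONTROL cells (open blue), 1 array each, grouped by role as in the text. Signals of different genes cannot be ranked against each other because probe sets differ in brightness; MX1, GBP2 and EPSTI1 have a signal below the dotted line at 387.3, and EPSTI1 in siCONTROL cells lies below the floor of 47.9 (dashed line).

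The exceptions that were lower in siSHISA2 cells were 12 of the 50 genes, from -0.30 for IFIT5 to -0.00 for DTX3L, and 11 of them were below 0 under all 4 scalings (DTX3L was above 0 under 1 of them). Only IFIT5, OAS1, PARP9 and SP110 were lower by more than the technical spread of 0.150 on the probe set used. On other probe sets OAS1 was at -0.07, PARP9 at 0.05 and SP110 from -0.14 to 0.16, while IFIT5 was at -0.33.

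A second probe set gives a partial check on each ratio, within the same pair of arrays. Of the 24 genes with several measured probe sets, 15 had all of them on 1 side of 0 (62.5%), 12 above and 3 below, compared with 45.6% of all 6428 genes with several. The 2 sets were not alike in brightness. On the probe set used, both signals were above 387.3 in 23 of the 24 and in 4841 of the 6428, and the part of brightness in this difference was not tested. The other 9 of the 24 had probe sets on both sides of 0: APOL6, GBP1, GBP2, OAS2, PARP9, PLSCR1, PML, SAMD9L and SP110. On the second probe set alone, 16 of 24 were above 0, against 50.9% of all such genes, with a median of 0.14. Of the 6 genes at least 1.3-fold higher, all but MX1 had another probe set, and RSAD2, ISG20, IFIT2, OASL and ZC3HAV1 were above 0 on every probe set, from 0.35 to 0.66.

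**Figure D4:**
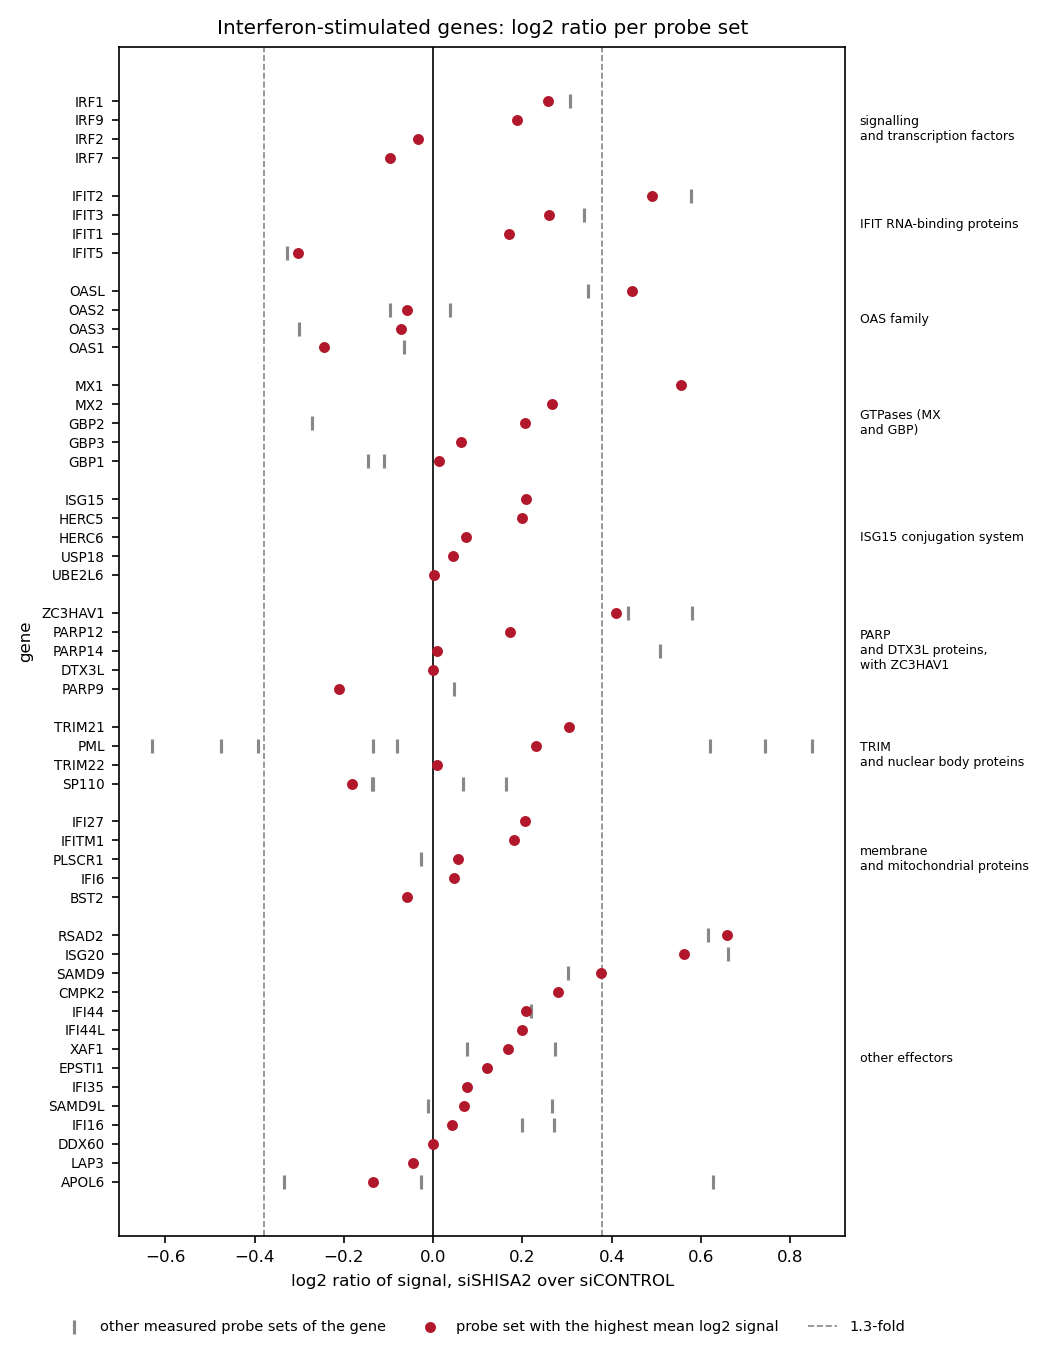
Log2 ratio of signal, siSHISA2 over siCONTROL (horizontal axis), of each of the 50 genes, grouped by role, on the probe set used (red points) and on every other measured probe set (grey ticks), with dashed lines at 1.3-fold in each direction. The red points of RSAD2, ISG20, MX1, IFIT2, OASL and ZC3HAV1 lie right of the right line, and no red point lies left of the left one. In 9 genes, PML and APOL6 among them, probe sets lie on both sides of 0. After each array is divided by its median, IFIT2, OASL and ZC3HAV1 come within the lines, and IFIT5 and OAS1 lie left of the left one. Of all measured genes, 17.3% are at least 1.3-fold lower under that scaling, against 9.3% as deposited, and 6.76% are higher, against 10.8%.

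Several of these genes are neighbours on a chromosome in the RefSeq table of GRCh38.p14, and neighbours did not always have like ratios. In the IFIT cluster of chromosome 10, IFIT2, IFIT3, IFIT1 and IFIT5 follow in that order, with 1 other gene between IFIT3 and IFIT1, at 0.49, 0.26, 0.17 and -0.30. In the OAS cluster of chromosome 12, OAS1, OAS3 and OAS2 were all slightly below 0. The adjacent IFI44L and IFI44 of chromosome 1 differed by less than 0.01, whereas RSAD2 was higher than CMPK2 by 0.38 on the log2 scale and SAMD9 higher than SAMD9L by 0.31.

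Other genes known to be stimulated by interferon, a list of 42, were spread about 0. Of the 39 measured, 19 were above 0 and 20 below, with a median of -0.00, and the difference from the 50 genes was not tested. In this list 8 of 39 genes passed 1.3-fold on the higher side, beside 10.8% of all measured genes, and 3 on the lower side, which is near the 9.3% of all genes. In 34 of the 39 both signals were above 387.3, and of all genes so bright 3.2% were at least 1.3-fold higher and 4.59% lower. The counts of 8 and 3 also include genes that were not so bright, so they and these shares are not for like sets. Besides DHX58, whose siCONTROL signal was near the floor, the largest ratios were those of CXCL11, a chemokine for T cells, RTP4, a chaperone of receptors, and CCL5, a chemokine for T cells and monocytes. CXCL11 had 2230 in siSHISA2 cells and 1062 in siCONTROL cells (log2 ratio 1.07, with 0.92 on the other probe set). RTP4 had 601.0 in siSHISA2 and 285.6 in siCONTROL cells (1.07). CCL5 had 10724 in siSHISA2 and 6291 in siCONTROL cells (0.77, with probe sets from 0.77 to 1.25). Single genes of this list were thus further apart than any of the 50 genes, and the list as a whole had its median at 0.

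**Figure D5:**
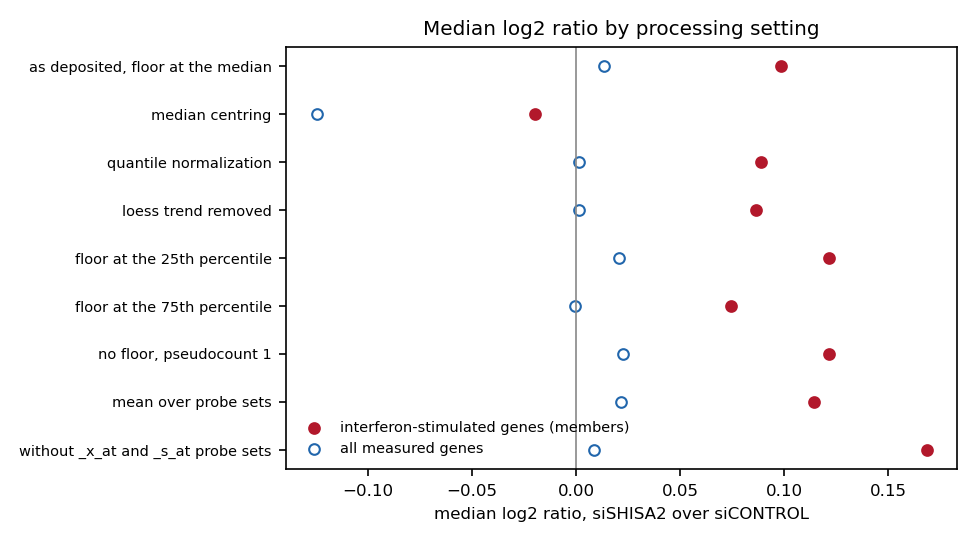
Median log2 ratio, siSHISA2 over siCONTROL (horizontal axis), of the measured interferon-stimulated genes (filled red) and of all measured genes (open blue) under 9 processing settings (rows). The red point lies to the right of the blue one in each row, by 0.07 to 0.16, and dividing each array by its median moves both to below 0 (-0.02 and -0.12).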

How the data were processed

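RNA of 2 samples of PC-3 cells, siSHISA2 and siCONTROL by their titles, was read on 1 array each. The intensities the authors deposited are linear signals per probe set. The submitters' processing notes name MAS5, with no version. The mean after trimming 2% at each end was 500.1 in both arrays. MAS5 subtracts mismatch signal, so dim values are noisy.

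From these, signals below the floor of 47.9 (the median of all 54613 non-control probe sets in both arrays) were raised to it, and a probe set with a signal above the floor in 1 array was called measured. Gene names came from the platform annotation (41097 probe sets with 1 symbol, 1801 with several and 11777 not listed), updated by gene identifier through the RefSeq table of GRCh38.p14, which changed none of these 52 names. A fold of 1.3 is a size, not a test, and no p-value can be computed with 1 array per group.

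The genes and all lists were chosen with earlier results of these data known. All 52 genes may be named; of other lists, all receptors and kinases and otherwise up to 4 genes with the largest ratios. Another gene planned for the receptor and kinase list was left out and is not reported here. The epithelial markers, PTPRC and the ligands below the floor were named after their values were seen. Alternatives were median centring, quantile normalization, a loess trend removed (span 0.3), floors at the 25th (11.3) and 75th (387.3) percentiles, a pseudocount of 1 in place of the floor, averaging a gene's probe sets, omitting _x_at and _s_at ones, and folds of 1.5 and 2. The procedure was tested on simulated data. Python 3.11.15, pandas and statsmodels were used. The sequences are those of RefSeq.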

Additional observations from a re-analysis of the deposited data

How the results depend on the processing

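With 1 array per group, leaving out a replicate was not possible. No paired analysis was possible because each group holds 1 array. The median log2 ratio of the interferon-stimulated genes was 0.10 as deposited and from 0.07 to 0.17 under the alternatives other than median centring, where it was -0.020. Median centring divides each array by its median signal, 50.3 in siSHISA2 and 45.6 in siCONTROL cells. That lowered the median of all measured genes to -0.12, and why the array medians differ was not tested. Median centring left 25 of 50 genes above 0. It left 3 of the 50 at least 1.3-fold higher (RSAD2, ISG20 and MX1), beside 6.76% of all measured genes under that scaling. It left 2 of the 50 at least 1.3-fold lower (IFIT5 and OAS1), beside 17.3% of all measured genes. Without probe sets that can share probes, 38 of these genes were measured. Of the 38, 6 were at least 1.3-fold higher, beside 12.4% of all genes then measured. The only one at least 1.3-fold lower was PML, at -0.63 on the probe set that was then used, beside 10.6% of all genes then measured. With a threshold of 1.5-fold 1 of the 50 genes was called higher, beside 5.01% of all measured genes, and with 2-fold 0 were, beside 0.92%. Added after the data were seen, the second probe set gave 16 of 24 genes above 0, the smaller count being that of genes with several probe sets. EPSTI1 was at 1.26 with no floor, a ratio of signals near background. RSAD2 and ISG20 were at least 1.3-fold higher under all 8 alternatives for scaling, floor and probe set, and IFIT2, OASL and ZC3HAV1 under all but median centring. The median of the sensor list was -0.040 after median centring, -0.0021 with the floor at 11.3 and with no floor, -0.12 with the floor at 387.3, -0.13 when probe sets were averaged and -0.011 without shared probe sets; the cause was not tested. The depth of an array is its signal over background, which limits MX1, GBP2 and EPSTI1.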
